A study of Mus musculus with 6 samples.

Results

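A set of 10 genes of the Notch pathway was followed in cultured mouse hippocampal neurons given forskolin or its solvent. They are the target genes Nrarp, Hes1, Hes5, Hey1, Hey2 and Heyl, the receptors Notch1 and Notch2, and the ligands Dll1 and Jag1, that is 10 of the 37411 gene rows of the deposited table. The genes were chosen by their names and roles in the pathway, but with the forskolin values of these data already known, in which Nrarp was among the most negative changes of all genes. Their forskolin and DMSO values are therefore given as a description, and nothing is supported by the tests of that contrast on these 10 genes.

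The cells were primary cultures of hippocampal neurons from newborn (P0) CD-1 IGS mice, an outbred strain, used after 16 days in vitro. The DMSO group (libraries 1, 2 and 3) received dimethyl sulfoxide, the solvent, and the forskolin group (libraries 4, 5 and 6) received 50 µM forskolin in an equal volume, each for 30 min. Forskolin, a compound made by a Coleus plant, stimulates adenylyl cyclases, the enzymes that make cyclic AMP. The groups share strain, age and culture time. The labels name no genetic change, no batch, and do not say whether the 3 libraries of a group came from separate cultures or animals, so that p-values measure the spread between these libraries only.

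Notch receptors are membrane proteins that are cut when a ligand of the Delta or Jagged kind on a neighbouring cell binds them. The freed intracellular domain enters the nucleus, joins the DNA-binding protein RBPJ and Mastermind coactivators, and turns on target genes, among them the Hes and Hey repressors. Nrarp is both a target and a brake, since its ankyrin repeat protein binds the intracellular domain and lowers its activity. In the brain the pathway is best known for keeping neural progenitors and astroglia from becoming neurons, and Notch receptors and ligands are also present in mature neurons.

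The promoters of the targets that were lowest with forskolin, Nrarp and Hes5, are shown because these genes carry the largest differences among the 10. Each run is the 250 bases before the annotated start, 5′ to 3′ on the gene's strand, from RefSeq (GRCm38.p6). Nrarp lies on the plus strand at chr2:25180508-25180757 and Hes5 on the plus strand at chr4:154960673-154960922. Capitals mark matches on either strand to the RBPJ core GTGGGAA (read as TTCCCAC on the other strand) and to TGACG, the core of the cyclic AMP response element (read as CGTCA on the other strand).
Nrarp: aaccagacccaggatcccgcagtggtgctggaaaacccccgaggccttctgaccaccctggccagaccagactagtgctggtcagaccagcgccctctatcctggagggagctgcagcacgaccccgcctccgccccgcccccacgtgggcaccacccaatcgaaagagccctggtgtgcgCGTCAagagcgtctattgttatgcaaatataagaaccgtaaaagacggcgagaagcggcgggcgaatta
Hes5: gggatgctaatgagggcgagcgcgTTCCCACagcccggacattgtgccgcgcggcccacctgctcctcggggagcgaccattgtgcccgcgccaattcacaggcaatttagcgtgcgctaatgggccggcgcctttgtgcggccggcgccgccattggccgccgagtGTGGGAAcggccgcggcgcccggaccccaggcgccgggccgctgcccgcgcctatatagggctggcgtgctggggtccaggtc
Hes5 held the RBPJ core at 2 places, whose first bases lie at positions -226 and -83 from the start. Nrarp held none in this window, and 1 TGACG core at position -69. Of the 10 genes, 7 had a promoter in the table (8 windows, since Dll1 has 2 starts). The Notch1 window and the Dll1 window at 15375824 to 15376073 lie at starts inside the annotated gene. The windows of Hey2, Notch2 and Jag1 reach in part into the annotated gene. Hes1, Hey1 and Heyl were not matched. Among the others, Hey2 held 1 RBPJ core at position -207 and Jag1 held 1 TGACG core at position -167, whereas Notch1, Notch2 and Dll1 held neither motif. Of all 32851 promoter windows of this length, 5.42% held the RBPJ core and 17.8% the TGACG core. The full element TGACGTCA, which contains that core, was in 1.55% of all windows and in none of these 8. These matches describe letters only, and the GC content of the windows was 61.2% for Nrarp and 71.6% for Hes5, against a median of 52.4% over all windows.

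Total counts ran from 28342764 to 35304310 in the DMSO libraries and from 34139191 to 47548379 in the forskolin libraries. Early response genes were used as a check on the treatment. Fos, a transcription factor gene induced by cyclic AMP, had 101 to 186 CPM (counts scaled to a common library total) with DMSO and 448 to 902 CPM with forskolin (edgeR adjusted p = 0.0375). Fosb and Klf4 also rose (edgeR adjusted p = 0.0402 and 0.0381), while Nr4a1, Arc and Npas4 did not overlap between the groups without passing the threshold (adjusted p = 0.0652, 0.066 and 0.219). The groups overlapped in Egr1 (adjusted p = 0.196). In libraries 4, 5 and 6, Fos had 831, 902 and 448 CPM, Fosb 65, 78.8 and 47 CPM, and Nr4a1 137, 138 and 61.6 CPM. Klf4 had 59.3, 52.2 and 11.6 CPM there, against 1.15 to 2.44 CPM with DMSO, and Egr1 had 142, 193 and 115 CPM. Library 6 was the lowest forskolin library in these genes, but not in Arc (163, 195 and 206 CPM) or Npas4 (112, 150 and 145 CPM). The neuronal label was met by 12 of 12 neuron markers at a DMSO mean of at least 1 CPM, but the 12 astrocyte markers were also all present, with a summed level of 7680 to 8420 CPM in the DMSO libraries, so that the cultures held astroglial RNA. The share of counts from the mitochondrial ribosomal RNAs mt-Rnr1 and mt-Rnr2 was 14%, 23.7% and 19.8% with DMSO and 29.6%, 33.3% and 26.9% with forskolin, without overlap (exact two-sided permutation p = 0.1), and its part in the results was not tested beyond a fit without these RNAs. Forskolin libraries 4 and 5 stood apart from library 6. The summed level of 12 microglia markers was 23 to 34.7 CPM in the DMSO libraries, 221 and 373 CPM in libraries 4 and 5, and 24.6 CPM in library 6 (exact two-sided permutation p = 0.2; the smallest this test allows is 0.1). In bulk RNA, a change in the number of cells of a type and a change in RNA per cell cannot be told apart.

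On a scale that divides CPM by the length of the longest annotated transcript, the DMSO level was highest for Hey1, at 17.4 ± 2.43 CPM per kilobase (SD, n = 3). Notch2 followed at 15.5 ± 2.31 CPM per kilobase, and the library ranges of these genes overlapped (15.5 to 20.1 for Hey1 and 14 to 18.2 for Notch2). Notch1, at 11.3 ± 1.61 CPM per kilobase, lay below Notch2 in every DMSO library. Hes1 (7.96 ± 0.659) and Hes5 (5.29 ± 2.02 CPM per kilobase) overlapped with each other through DMSO library 1, which held the highest Hes5 level. Below them, in ranges that did not overlap from one gene to the next, came Dll1 (3.17 ± 0.474), Jag1 (1.86 ± 0.353), Hey2 (1.29 ± 0.0712) and Nrarp (0.681 ± 0.0446 CPM per kilobase). Heyl was near the floor, at 0.0115 ± 0.00459 CPM per kilobase. With forskolin Hes5 moved down this order, to 1.82 ± 1.11 CPM per kilobase, next to Jag1 (1.92 ± 0.281) and Hey2 (1.89 ± 0.648). Nrarp stayed last but one in the order, at 0.102 ± 0.0631 CPM per kilobase.

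**Figure D1:**
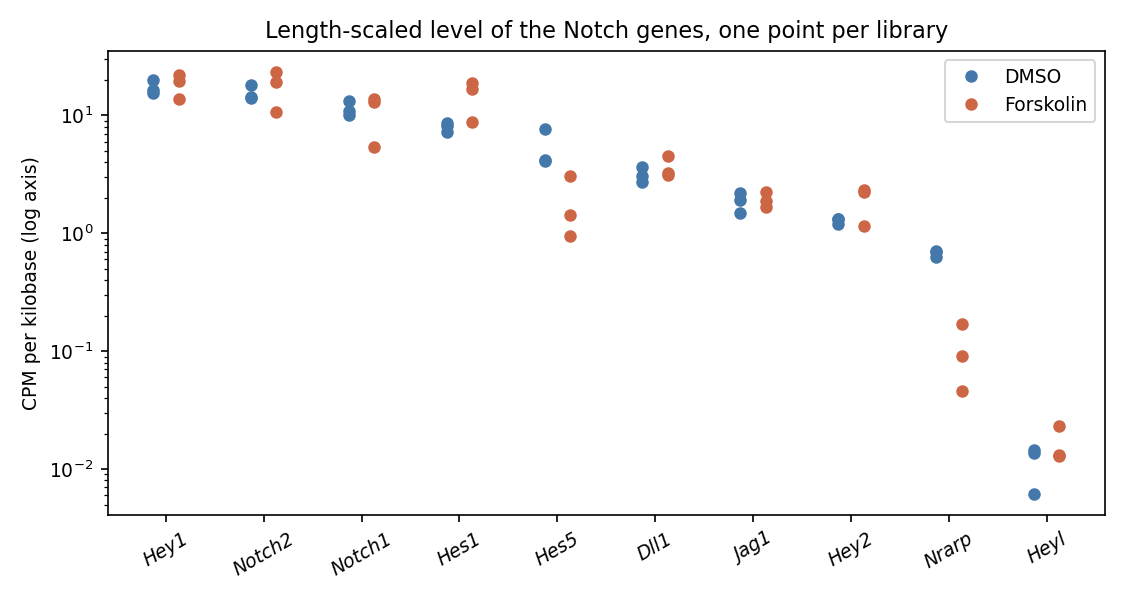
CPM per kilobase of the longest annotated transcript (log axis) for each of the 10 genes, ordered by the DMSO mean, with 1 point per library and the groups in 2 colours. Nrarp and Hes5 show forskolin points wholly below the DMSO points, and Heyl lies more than a factor of 10 below every other gene in the DMSO libraries.

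Nrarp had the largest difference of the 10 genes. The gene (ENSMUSG00000078202.3; GRCm38, chromosome 2, 25180758 to 25183339) had 59, 55 and 58 counts in DMSO libraries 1, 2 and 3, and 11, 15 and 4 counts in forskolin libraries 4, 5 and 6. In CPM these are 1.84, 1.8 and 1.63 against 0.234, 0.441 and 0.119. Every forskolin library lay below every DMSO library, and library 6 was the lowest. The exact 95% Poisson interval of the 4 counts in library 6 ran from 1.09 to 10.2 counts and that of the 55 counts in library 2 from 41.4 to 71.6 counts; such intervals cover counting error only. The fitted log2 fold change was -2.72 ± 0.45 (SE), a level 6.59-fold lower with forskolin, with rank 10 from the lowest among 16233 tested genes. The DMSO libraries were close together, with a coefficient of variation of 6.55%. An annotated antisense gene, Gm38287, covers 2559 of the 2582 bases of Nrarp on the other strand, and it held 0 counts in every library. Whether counting used strand is not given in the sources used here.

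Hes5, a bHLH repressor and a classical Notch target of progenitors and astroglia, was the other gene whose forskolin libraries all lay below the DMSO libraries. Hes5 (ENSMUSG00000048001.7; chromosome 4, 154960923 to 154962371) had 9.71, 5.28 and 5.22 CPM with DMSO, and 1.21, 1.82 and 3.91 CPM with forskolin in libraries 4, 5 and 6. Library 6, the lowest for Nrarp, was here the nearest to DMSO, and library 1 stood above the other DMSO libraries. Counts ranged from 57 to 311, and Gm20421, a noncoding gene that covers 756 bases of Hes5 on the other strand, held 0 to 2 counts. The fitted log2 fold change was -1.55 ± 0.49 (SE); without library 6 it was -2.17 ± 0.38, and with library 6 as the only forskolin library it was -0.75 ± 0.44.

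Hes5 and Nrarp differ in base composition, and GC-rich genes as a class were lower in these forskolin libraries. The longest transcript of Hes5 has 62.1% GC, above 98.1% of tested genes, and that of Nrarp has 54.5%, above 75.9%. The 255 tested genes within 1 percentage point of Hes5 had median log2 ratios to the DMSO mean of -0.483, -0.569 and -0.882 in libraries 4, 5 and 6, where Hes5 had -2.48, -1.89 and -0.78. Hes5 was below the median of genes of like GC content in libraries 4 and 5 and close to it in library 6. The 1511 tested genes near Nrarp in GC content had medians of -0.148, -0.207 and -0.22 in the same libraries, where Nrarp had -2.91, -2 and -3.88. Once each library's GC trend was taken out, Nrarp stood at a log2 fold change of -2.55 ± 0.43 (SE) and Hes5 at -0.78 ± 0.57. With the trend taken out and library 6 left out, Hes5 stood at -1.63 ± 0.36 and Nrarp at -2.25 ± 0.35. How much of the Hes5 difference goes with base composition was not tested beyond these values. With the trend removed and library 6 as the only forskolin library, the log2 fold change of Hes5 was 0.14 ± 0.38 and that of Nrarp -3.61 ± 0.45. In every fit with library 6 as the only forskolin library, it is assumed to vary like the DMSO libraries.

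Hes1, a bHLH repressor related to Hes5, was higher with forskolin. Hes1 (ENSMUSG00000022528.8; chromosome 16, 30064384 to 30067796) had 11.9, 10.6 and 12.5 CPM with DMSO, and forskolin libraries 4, 5 and 6 had 24.5, 27.7 and 12.9 CPM. Libraries 4 and 5 held about 2 times the DMSO level, while library 6 lay only just above the highest DMSO library. The fitted log2 fold change was 0.89 ± 0.28 (SE), 1.14 ± 0.13 without library 6 and 0.18 ± 0.19 with library 6 as the only forskolin library. The GC content of Hes1 is 50.7%, near the median of 49.5%, and removal of the GC trend left the log2 fold change at 0.95 ± 0.29.

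Of the Hey repressors, Hey2 showed the Hes1 pattern on a smaller scale and Hey1 showed little difference. Hey2 (ENSMUSG00000019789.9; chromosome 10, 30832359 to 30842801) had 3.4, 3.08 and 3.39 CPM with DMSO and 5.65, 5.91 and 2.93 CPM with forskolin, so that library 6 lay under every DMSO library (log2 fold change 0.55 ± 0.3 (SE)). Hey1 (ENSMUSG00000040289.8; chromosome 3, 8663359 to 8667256) had 48.8, 39.9 and 37.7 CPM with DMSO and 53.3, 47.5 and 33.6 CPM with forskolin. Its groups overlapped widely (log2 fold change 0.09 ± 0.19 (SE); -0.03 under scaling by library size alone). Heyl (ENSMUSG00000032744.4; chromosome 4, 123233556 to 123249875) had 2, 2 and 1 counts with DMSO and 5, 2 and 2 counts with forskolin, and did not pass the filter on low counts. No difference in Heyl was detectable at this depth.

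**Figure D2:**
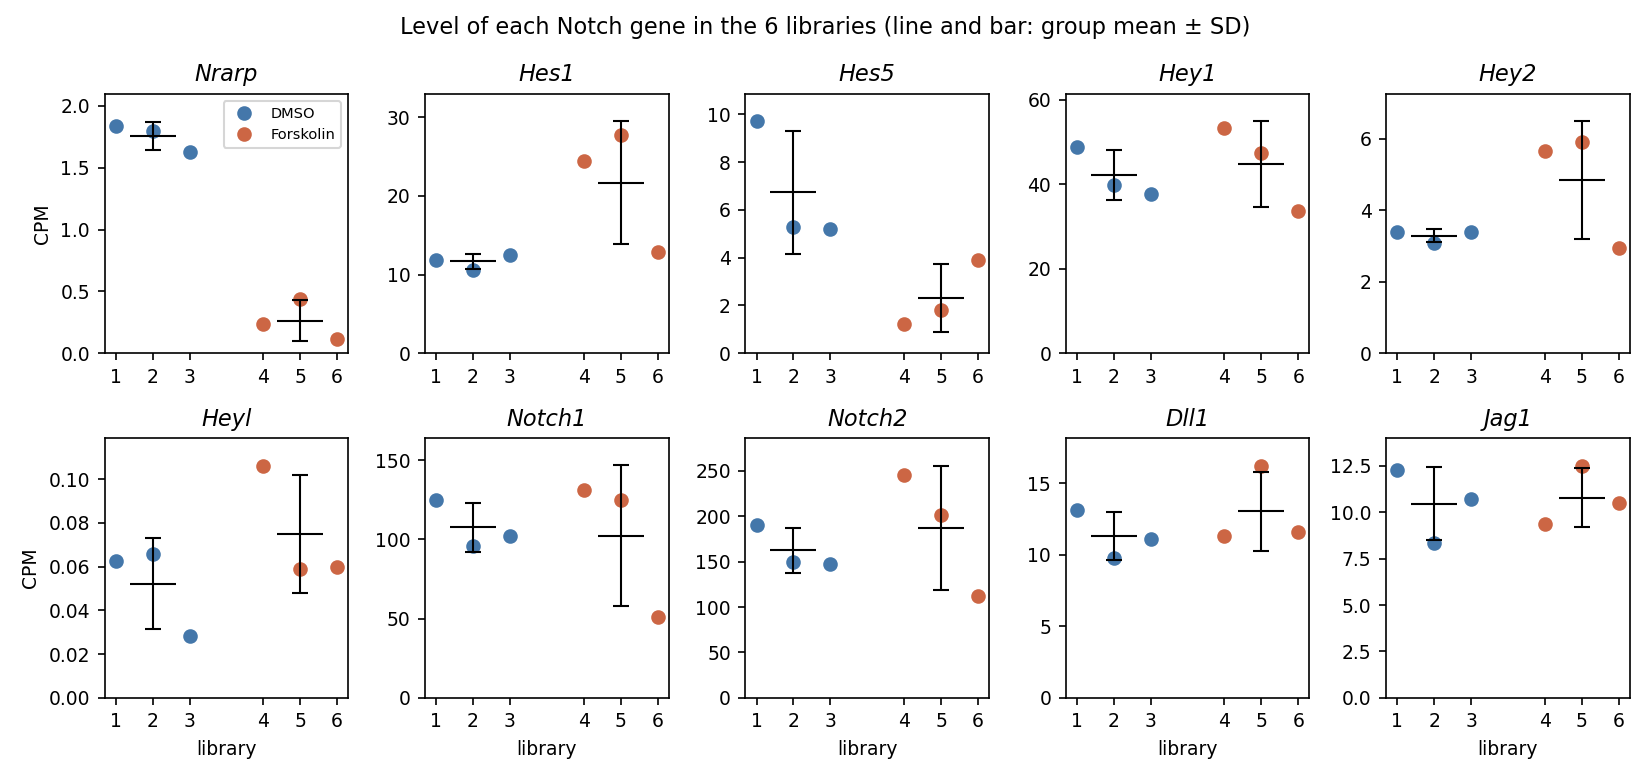
CPM of each of the 10 genes in the 6 libraries (x axis: library number; y axis: CPM from 0), with the group mean and SD as a line and bar. Nrarp and Hes5 lie lower in all 3 forskolin libraries, whereas Hes1 and Hey2 are high in libraries 4 and 5 and near or below the DMSO level in library 6.

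The receptors were the most abundant of the 10 genes in CPM not scaled for length, and their groups overlapped. Notch1 (ENSMUSG00000026923.15; chromosome 2, 26457903 to 26516663) had 125, 95.9 and 102 CPM with DMSO and 131, 125 and 51 CPM with forskolin. Notch2 (ENSMUSG00000027878.11; chromosome 3, 98013527 to 98150361) had 191, 150 and 147 CPM with DMSO and 246, 202 and 112 CPM with forskolin. In both genes libraries 4 and 5 lay near or above the highest DMSO library and library 6 lay below them all, by a log2 ratio to the DMSO mean of -1.08 for Notch1 and -0.54 for Notch2. The fitted log2 fold changes were -0.07 ± 0.34 (SE) for Notch1 and 0.2 ± 0.29 for Notch2. Without library 6 they were 0.23 ± 0.13 and 0.45 ± 0.15, and with it as the only forskolin library -1.04 ± 0.2 and -0.5 ± 0.2. Without library 6 and the GC trend they were 0.48 ± 0.12 and 0.58 ± 0.13. Notch2 also turned sign without library 4 (-0.05), and Notch1 without DMSO library 1 (0.06) and with the GC trend removed from all 6 libraries (0.2). The noncoding gene 0610009E02Rik, which covers 1488 exon bases of Notch1 on the other strand, held 16 to 52 counts where Notch1 held 1709 to 6166.

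The forskolin and DMSO libraries overlapped in both ligands. Dll1 (ENSMUSG00000014773.13; chromosome 17, 15367354 to 15376872), the Delta ligand, had 13.1, 9.78 and 11.1 CPM with DMSO and 11.3, 16.2 and 11.6 CPM with forskolin. Jag1 (ENSMUSG00000027276.7; chromosome 2, 137081456 to 137116644), the Jagged ligand, had 12.3, 8.37 and 10.7 CPM with DMSO and 9.35, 12.5 and 10.5 CPM with forskolin. Library 5 was the highest of all 6 in each gene (log2 fold change 0.2 ± 0.2 (SE) for Dll1 and 0.04 ± 0.2 for Jag1). Jag1 turned to -0.09 under scaling by library size alone, to -0.08 without DMSO library 2 and to -0.05 without forskolin library 5. A930024N18Rik, a long noncoding gene on the other strand, shares 1093 exon bases with Dll1 and held 22 to 40 counts where Dll1 held 298 to 550.

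Of the 9 genes that were tested, edgeR's quasi-likelihood test put 1 (Nrarp, adjusted p = 0.0445) under a Benjamini-Hochberg adjusted p of 0.05 as lower and 0 as higher, against 1.34% of all tested genes called lower and 0.172% called higher. At an unadjusted p under 0.05 there were 2 lower and 1 higher, against 11.7% and 10.6% of all tested genes. DESeq2 called 2 lower and 1 higher, against 6.03% and 4.9%. With library quality weights limma called 2 lower and 2 higher, against 20.9% and 21%. The groups did not overlap in 2 lower genes and 1 higher gene (Hes1), against 16.2% and 10.3% of all tested genes. Without library 6, edgeR called Nrarp and Hes5 lower and Hes1 and Hey2 higher, against 17.1% called lower and 16.5% called higher among all genes. With the GC trend also removed, it called the same 2 genes lower and Hes1, Hey2, Notch1 and Notch2 higher, against 16% of all genes in each direction. Since this contrast was known when the genes were chosen, nothing is read from these counts. The adjusted p of Nrarp was 0.00584 without library 6, and from 0.149 to 0.313 without any other single library (1, 2, 3, 4 or 5). Without any of those, edgeR called 0 genes of the whole table, with 1945 to 3216 at an unadjusted p under 0.05. The adjusted p was 0.0519 with RLE factors and 0.188 with the GC trend removed.

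**Figure D3:**
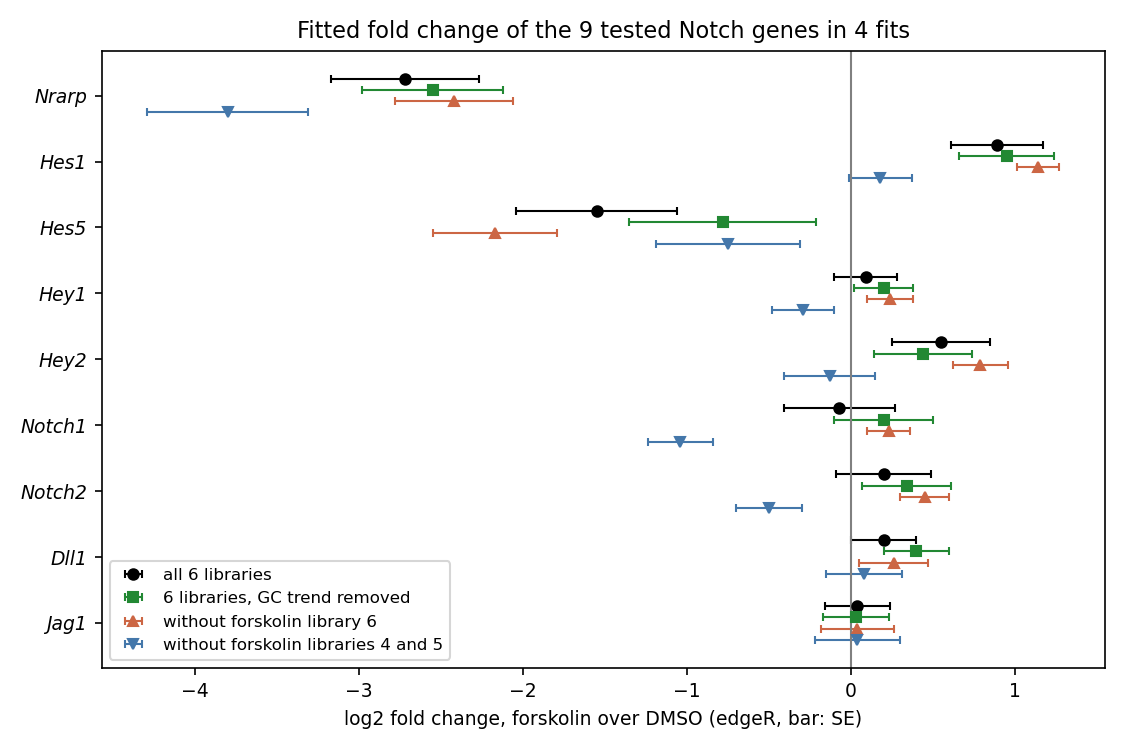
Fitted log2 fold change, forskolin over DMSO (x axis, edgeR, bars are SE), of the 9 tested genes in 4 fits: all 6 libraries, GC trend removed, without library 6, and without libraries 4 and 5. Nrarp lies between -3.8 and -2.42 in all 4, while Notch1, Notch2, Hey1 and Hey2 change sign between the last 2 fits.

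Marker genes of other cell types moved with some of these differences. Hes1, Hey2 and Notch2 were high in libraries 4 and 5, whereas Hes5 was lowest there (1.21 and 1.82 CPM, against 5.22 to 9.71 CPM with DMSO). Over the 12 microglia markers these libraries had median log2 ratios to the DMSO mean of 4.32 and 5.13 (12 and 11 of 12 above every DMSO library). Over the 12 neural progenitor markers the medians were 0.736 and 0.875 (8 of 12 above in each). The neuron markers of libraries 4 and 5 were lower, with medians of -0.758 and -0.794. In library 6 the medians were -0.195 for microglia, 0.0938 for progenitors and 0.242 for neurons, with 2, 2 and 5 of 12 markers above every DMSO library. Another 5 neuron markers (Rbfox3, Tubb3, Nefm, Slc17a7 and Camk2a) were below every DMSO library in all 3 forskolin libraries. Of them Rbfox3 was called lower (edgeR adjusted p = 0.0392). Over all tested genes, 16.2% were lower without overlap and 1.34% were called lower. The GC contents of these 5 were 53.3% to 58.6%, above the median of 49.5%, and those of the remaining neuron markers were 38.7% to 48.8%. The part of base composition in this was not tested. Summed progenitor levels were 983 to 1410 CPM with DMSO and 2310, 2480 and 929 CPM in libraries 4, 5 and 6 (exact two-sided permutation p = 0.4). Summed astrocyte levels were 8380, 9180 and 7530 CPM in these libraries, against 7680 to 8420 CPM with DMSO (exact permutation p = 0.7). Summed oligodendrocyte lineage levels were 1220, 1690 and 765 CPM, against 946 to 1020 CPM (exact permutation p = 0.5). Of 12 markers each, 7, 7 and 2 for astrocytes and 6, 6 and 1 for the oligodendrocyte lineage were above every DMSO library in libraries 4, 5 and 6. In each list 3 markers were lower without overlap, against 16.2% of all tested genes. Vascular markers summed to 39.7 to 94.6 CPM with DMSO and 35.7 to 117 CPM with forskolin (exact permutation p = 0.7). Of these, Cldn5 had 0 counts in every DMSO library and Kcnj8 in every forskolin library. In library 6 the medians of the oligodendrocyte lineage and vascular markers, -0.476 and -0.619, were the lowest of the 6 libraries. The part of these markers in the values of the 10 genes, Nrarp included, was not tested.

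**Figure D4:**
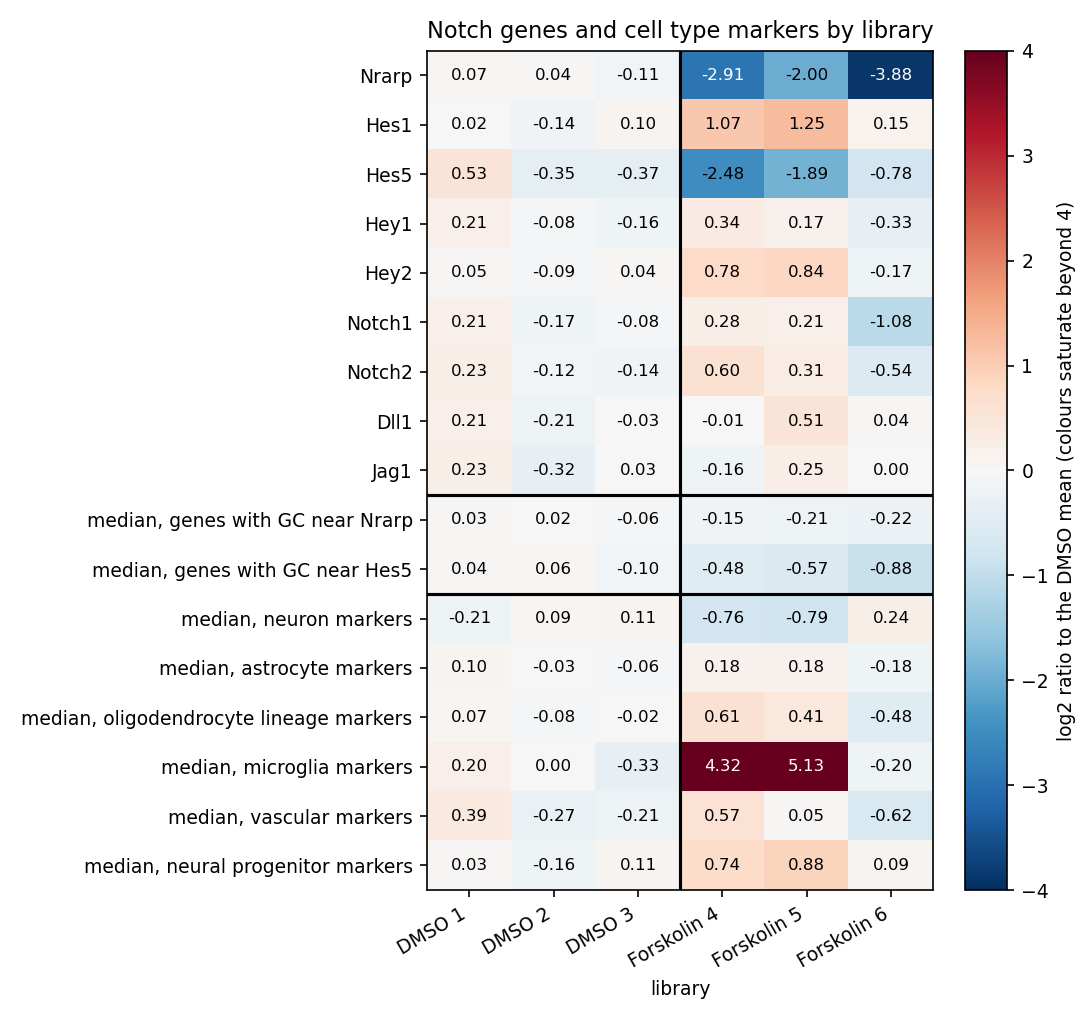
Log2 ratio of each library (columns) to the DMSO mean for the 9 tested genes, for the median of tested genes with GC content near that of Nrarp or Hes5, and for the median of 6 lists of cell type markers. Microglia markers reach 4.32 and 5.13 in libraries 4 and 5 and -0.195 in library 6, and Nrarp is negative in all 3 forskolin libraries.

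The rest of the pathway was examined through 57 genes grouped by role, of which 55 were tested. Of these, edgeR called 1 lower and 0 higher, against 1.34% and 0.172% of all tested genes. At an unadjusted p under 0.05 there were 16 lower and 2 higher, against 11.7% and 10.6% of all. DESeq2 called 11 lower and 2 higher (6.03% and 4.9% of all), and limma with quality weights 15 lower and 7 higher (20.9% and 21% of all). Their median log2 fold change was -0.05, against 0.02 over all tested genes. The groups did not overlap in 17 genes that were lower (30.9%, against 16.2% of all tested genes) and in 4 that were higher (7.27%, against 10.3%). All 17 were among the 37 genes with a GC content above the median of all tested genes, and all 4 among the other 18. The matching shares of all tested genes above and below that GC content are not given here, so nothing is read from this split. After removal of the GC trend the median was -0.01 and edgeR called 0, with 2 lower and 1 higher at an unadjusted p under 0.05 (4.99% and 7% of all). Without library 6 edgeR called 11 lower (20%) and 6 higher (10.9%), against 17.1% and 16.5% of all genes, and with the GC trend also removed 4 lower and 5 higher, against 16% of all in each direction.

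The gene called lower, Numbl, encodes a Numb-like adaptor that antagonises Notch receptors. Numbl had 99.5, 114 and 99.7 CPM with DMSO and fell to 49.8, 55.7 and 45.7 CPM with forskolin (log2 fold change -1.05 ± 0.12 (SE), edgeR adjusted p = 0.0276). All forskolin libraries, library 6 included, held about the same level. Its GC content is 54.4%, close to that of Nrarp, and the log2 fold change with the GC trend removed was -0.88 (adjusted p = 0.146). Without library 6 the adjusted p of Numbl was 0.00338, and without any other single library it was 0.123 to 0.242. Without library 6 and the GC trend it passed (-0.84, adjusted p = 0.00485). Over these fits and the fit with library 6 as the only forskolin library, its log2 fold change ran from -1.15 to -0.84. Among the other genes of receptor turnover (9 genes, of which Numbl alone was called; median -0.06), the Deltex gene Dtx1 had 93.6 to 103 CPM with DMSO and 38 to 60.1 CPM with forskolin. Its log2 fold change, -0.93 (adjusted p = 0.0654), was -0.28 after removal of the GC trend and -1.32 with library 6 as the only forskolin library. Dtx3 had a log2 fold change of -0.39 and the ubiquitin ligase gene Itch 0.36 (adjusted p = 0.118 and 0.158), and without the GC trend these values were 0.03 and 0.06. Without library 6 Dtx1, Dtx3 and Itch passed (adjusted p = 0.00393, 0.0132 and 0.0387), but not with the GC trend also removed (0.0675, 0.333 and 0.595). Dtx3l, a partner of the Deltex family, had 7.24 and 7.23 CPM in libraries 4 and 5, 1.58 CPM in library 6 and 2.02 to 3.15 CPM with DMSO. Dtx3l passed without library 6, with and without the GC trend (adjusted p = 0.00664 and 0.00891 after its removal).

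The other receptors and ligands had the most negative median of the pathway lists, -0.72 over 7 genes, though none of them passed in edgeR. Their median GC content was 61%, and the median log2 fold change with the GC trend removed was -0.15. Jag2 had 18.2, 22.1 and 19.2 CPM with DMSO and 11.8, 12.1 and 7.08 CPM with forskolin (log2 fold change -0.94, adjusted p = 0.104). Dll3, a ligand known to act inside the cell, had 13.2, 13.1 and 13.7 CPM against 5.2, 8.17 and 8.48 CPM (log2 fold change -0.88, adjusted p = 0.105). The groups did not overlap in these genes or in Notch4 (-0.74) and Dlk2 (-0.72); without the GC trend the 4 log2 fold changes were -0.34, -0.27, -0.15 and -0.16. Both Jag2 and Dll3 passed without library 6 (edgeR adjusted p = 0.00971 and 0.0155), unlike Dll1 and Jag1, whose adjusted p there was 0.37 and 0.896. Without library 6 and without the GC trend, neither Jag2 (-0.24, adjusted p = 0.196) nor Dll3 (-0.55, adjusted p = 0.115) passed. Whether the ligands differed from each other was not tested.

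Genes for ligand endocytosis and sugar modification had a median of -0.05 over 9 genes. Neurl1a and Mib2, ubiquitin ligases that drive ligand uptake, had log2 fold changes of -0.84 and -0.73 (edgeR adjusted p = 0.0693 and 0.0855) at GC contents of 63.3% and 61.1%, and of -0.05 and -0.17 with the GC trend removed. Both passed without library 6 (adjusted p = 0.00286 and 0.00765), and with the GC trend also removed Neurl1a passed (-0.46, adjusted p = 0.026) and Mib2 did not (-0.13, adjusted p = 0.272). Rfng, a fringe that modifies receptor sugars, had -0.47, and Neurl1b had -0.38; without the GC trend these values were -0.01 and -0.14. Both passed without library 6 (adjusted p = 0.0111 and 0.0202) but not with the GC trend also removed (0.0961 and 0.0842). Mfng, another fringe, had 0.344, 1.08 and 0.252 CPM with DMSO and 0.998, 1.26 and 0.448 CPM with forskolin, so that its groups overlapped. The 10 genes of receptor cleavage had a median of -0.03. Of them Adam17, a sheddase, had 30.2 to 37.6 CPM with DMSO and 48.9, 53.8 and 33.8 CPM in libraries 4, 5 and 6. Its log2 fold change from all 6 libraries, 0.45, did not pass (edgeR adjusted p = 0.226). After removal of the GC trend it was 0.3 (adjusted p = 0.507). Leaving out library 6, Adam17 passed before (0.61, adjusted p = 0.0134) and after that removal (0.46, adjusted p = 0.0323). Against DMSO, library 6 alone gave a log2 fold change of 0.06.

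The nuclear complex and its corepressors (18 genes, median -0.01) held genes with positive and with negative values. Kat2b, a histone acetyltransferase, had 22, 18.2 and 19.9 CPM with DMSO and 46, 39.1 and 22.8 CPM with forskolin (log2 fold change 0.84, adjusted p = 0.144). Rbpj had 6.69 to 9.87 CPM with DMSO and 14.3, 13.4 and 7.47 CPM in libraries 4, 5 and 6, and Maml2 had 12.1 to 16.3 CPM against 22.3, 23.5 and 12.2 CPM. These 3 genes shared with Hes1 and Hey2 a high level in libraries 4 and 5 and a level near the DMSO mean in library 6. Microglia and progenitor markers were high in the same libraries 4 and 5. The early response genes Fos, Nr4a1 and Klf4, unlike Arc and Npas4, were also higher there than in library 6. The part of these genes and markers was not tested. Without library 6 Kat2b, Rbpj and Maml2 passed the threshold (edgeR adjusted p = 0.00373, 0.0272 and 0.0166). With the GC trend also removed, Kat2b and Maml2 passed (adjusted p = 0.00442 and 0.0193) and Rbpj did not (0.083). The corepressor genes Tle2 (-0.79) and Tle1 (-0.42), and the acetyltransferase gene Kat2a (-0.46), had lower, non-overlapping forskolin levels without passing (adjusted p from 0.141 to 0.172). With the GC trend removed from all 6 libraries these values were -0.35, -0.29 and -0.12. Without library 6 Tle1 and Kat2a passed (adjusted p = 0.00936 and 0.013), and with the GC trend also removed Tle1 passed (-0.42, adjusted p = 0.0202) and Kat2a did not (-0.37, adjusted p = 0.0691). In that last fit Hdac2, a histone deacetylase gene, also passed as lower (-0.31, adjusted p = 0.0192), and the corepressor gene Tle3 passed as higher (0.38, adjusted p = 0.0259); both were named after their values were seen. Of the other Hes genes, Hes6, an antagonist of Hes1, had a value of -0.56 (adjusted p = 0.139) that was 0.06 after removal of the GC trend, and Hes2 and Hes3 held too few counts to be tested.

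**Figure D5:**
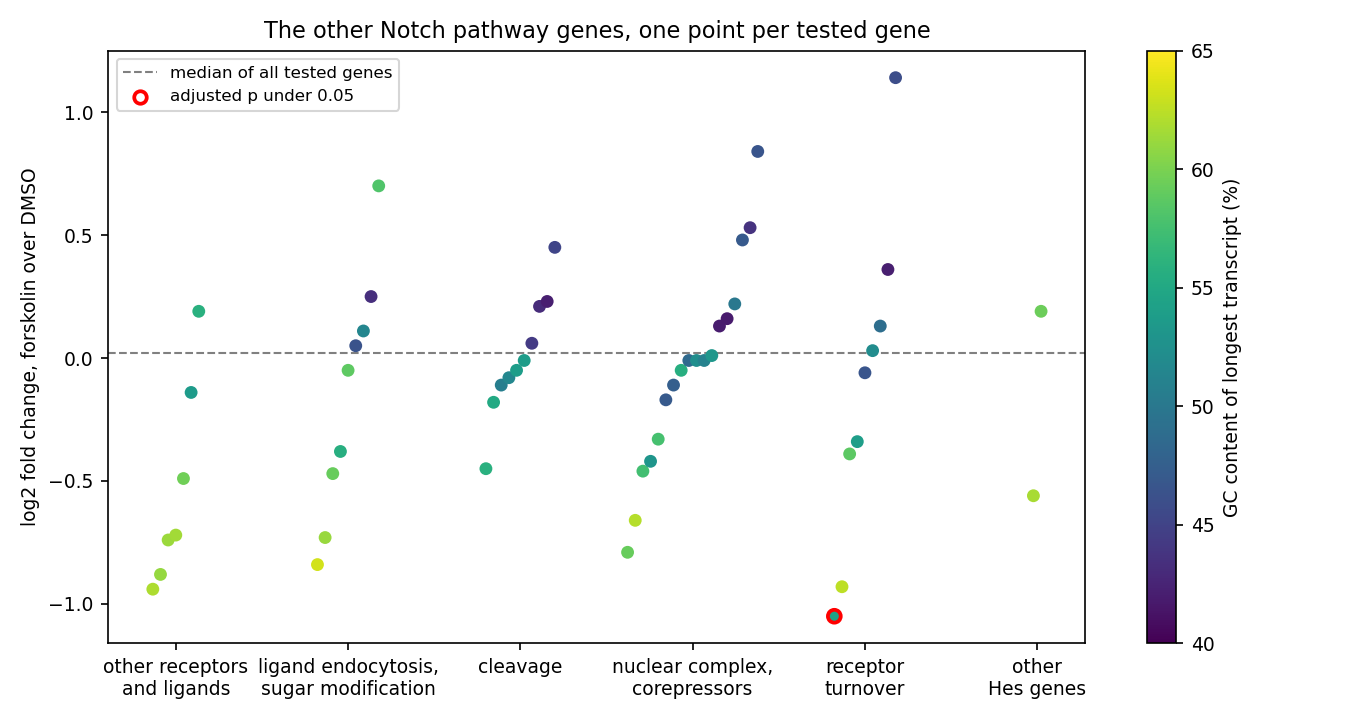
Log2 fold change, forskolin over DMSO (y axis), of the 55 tested pathway genes outside the 10, in 6 role lists, coloured by the GC content of the longest transcript; the dashed line is the median of all tested genes, 0.02, and a red ring marks an adjusted p under 0.05. Numbl alone is ringed, and the other low points are mostly genes of high GC content.

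Nrarp was level among the DMSO libraries and lowest in library 6 among the forskolin libraries. How many genes share that pattern was not counted, and genes were compared with Nrarp by correlation only. Among 14905 other tested genes (mean count 20 or more), the 5 whose log2 CPM correlated best with that of Nrarp over the 6 libraries were Ino80e (Pearson r = 0.998), Unc5a (0.998), Osgin1 (0.997), Mad1l1 (0.996) and Mrps9 (0.994), and 269 genes had an r above 0.95. The points of each coefficient are the same 6 libraries in 2 groups, so these coefficients are descriptions. The differences of these 5 genes were much smaller than that of Nrarp: their log2 fold changes were -0.47, -1.14, -0.86, -0.38 and -0.15, and of them Unc5a, a netrin receptor gene, passed (87.2 ± 5.74 against 39.6 ± 8.12 CPM, SD, n = 3; edgeR adjusted p = 0.0371). None of the 5 is in the pathway lists.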

How the data were processed

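RNA had been taken with Trizol and chloroform, and libraries made with Illumina protocols, per the labels' protocols. The authors deposited estimated counts, as whole numbers per gene symbol and library; per the submitters' processing notes Salmon, DESeq and GRCm38 were used, while versions, annotation and strand setting are not given in the sources used here. GENCODE M21 (GRCm38), matched by symbol, gave coordinates, overlaps, length and GC content of the longest transcript (97.1% of tested genes had one). Promoters came from RefSeq. The authors' table of their own comparison was not used here.

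Software was edgeR 4.0.16, DESeq2 1.42.0 and limma 3.58.1 under R 4.3.3. Genes passing filterByExpr (minimum count 10, minimum total 15) numbered 16233. Libraries were scaled with TMM factors, and groups compared with glmQLFit and glmQLFTest, without covariates, Benjamini-Hochberg adjusted over all tested genes, threshold 0.05. SE is the absolute log2 fold change over the square root of F. CPM use TMM-scaled library sizes. GC trends were lowess fits (span 0.3) of log2 CPM (prior count 2), entered as offsets; marker ratios had 0.1 CPM added. Single library measures had exact permutation tests over 20 regroupings.

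The genes, lists and tests were chosen with earlier results of these data known, and the split of pathway genes at the median GC content after their values were seen. Named are the 10 genes, pathway genes passing 0.05 with all libraries or without library 6, the 6 next largest changes (mean count 20 or more), the 5 genes most correlated with Nrarp, and the early response genes; overlapping, marker and untested genes were named after their values were seen. A pathway gene that the rule names is not reported here. Alternatives were RLE factors, library size alone, no filter, a mean count of at least 50, DESeq2, limma-voom with quality weights, removal of the GC trend, of mitochondrial ribosomal RNA and of each library, and, added after seeing the data, removal of libraries 4 and 5.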

Additional observations from a re-analysis of the deposited data

How the results depend on the processing

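The number of called genes depended on setting. Against 245 genes with edgeR on all libraries (pathway genes outside the 10: 1), RLE factors gave 137, DESeq2 1775 (pathway 13), limma-voom with quality weights 6795 (22), removal of the GC trend 0 with 1946 at an unadjusted p under 0.05 (pathway 0), and that removal without library 6, together, 5420 (9). Leaving out 1 library gave 0 to 5698 (pathway 0 to 17): 0 without any of libraries 1 to 5, with 1945 to 3216 at an unadjusted p under 0.05, and 5698 without library 6. Library size alone and no filter each gave 2 pathway genes. In the alternatives added after seeing the data, edgeR without libraries 4 and 5 called 94 genes, and 32 with the GC trend also removed (pathway 0). No paired analysis was possible because the labels number the libraries 1 to 6 with no number shared between the groups.

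Nrarp was negative in all 17 fits that tested it (-3.8 to -2.25); a mean count of at least 50 left it out. Dll1 and Hes1 were positive in all 18. Signs turned as follows. Hes5 was 0.14 without libraries 4 and 5 and with the GC trend removed. Hey1 was -0.03 with library size alone, -0.06 without library 4, and, without libraries 4 and 5, -0.29 (-0.19 with the GC trend removed). Hey2 was -0.13 and -0.29 in the last pair. Jag1 was -0.09 with library size alone, -0.08 without DMSO library 2, -0.05 without library 5 and -0.03 without libraries 4 and 5 and the GC trend. Notch1 was 0.24 with quality weights, 0.2 with the GC trend removed, 0.48 with that and without library 6, 0.06 without DMSO library 1 and 0.23 without library 6. Notch2 was -0.05 without library 4 and -0.5 without libraries 4 and 5 (-0.36 with the GC trend removed), against 0.45 without library 6. Over all genes, the median was 0.02, and -0.09 with library size alone. The cause was not tested. Counts of 4 to 59 limit Nrarp.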

Other observations

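Inside Notch2, on the same strand, the annotation places the genes Gm42819 and Gm42820, single-exon entries of the biotype TEC, which marks loci of unsettled status. Gm42819 overlaps 0 bases of Notch2 exons, so that it lies within introns, and Gm42820 overlaps 541. Gm42819 had 1.69, 1.02 and 1.04 CPM with DMSO and 2.59, 2.5 and 2 CPM with forskolin. Its log2 fold change was 0.92 ± 0.3 (SE), which did not pass (edgeR adjusted p = 0.158). Gm42820 had 0.5, 0.492 and 0.533 CPM against 1.23, 1.2 and 0.687 CPM (log2 fold change 1.03 ± 0.33, adjusted p = 0.155). In both, the lowest forskolin library exceeded the highest DMSO library, whereas Notch2 itself was 112 CPM in library 6, under its DMSO range of 147 to 191 CPM. Whether these genes differ from Notch2 in response was not tested. They were chosen after their values were seen.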
